A study of Mus musculus with 4 samples.

Results

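The genes described here are 10 transcription factor genes of the neural tube, Sox1, Sox2, Sox21, Pax6, Olig2, Nkx6-1, Nkx2-2, Neurog1, Neurog2 and Dbx1, followed through the accessible chromatin regions assigned to them in early mouse forelimb buds. A region belonged to a gene when its nearest protein-coding transcription start, counted from the centre of the region, was a start of that gene, or when a start of the gene lay within 2.5 kb of it. By this rule, 72 of 42613 regions at E9.5 and 53 of 46765 regions at E10.5 were assigned to the 9 genes that the gene annotation names. Sox1 is not named in that annotation. Its start was placed on chromosome 8 by an exact match of its RefSeq promoter, and it added 7 regions at E9.5 and 2 at E10.5.

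Open chromatin was mapped by ATAC-seq, which uses a transposase to tag DNA that is not tightly packed. Wild-type NMRI embryos of 2 stages were used, with 2 biological replicates each. The earlier samples, titled E9.5 but given as E9.75 in the protocol, each held the forelimb pair of 1 embryo with the trunk next to it. The E10.5 samples each held a forelimb pair, no trunk is named for them, and their tissue label also lists hindlimb buds. Stage and trunk tissue therefore cannot be told apart in any comparison of the lists, nor can fewer cells of a type be told apart from less open chromatin per cell.

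The neural tube of the embryo lies in the trunk, beside the forming limb. Its dividing progenitors carry Sox1 and Sox2, which hold them in the progenitor state, while Sox21 counteracts these factors. Signals from the floor plate and the roof plate divide the progenitors into bands along the dorsoventral axis, each marked by factors such as Pax6, Dbx1, Nkx6-1, Olig2 and Nkx2-2, and the proneural factors Neurog1 and Neurog2 start neuronal differentiation. An accessible region shows that the DNA was open in some cells of the sample and does not measure expression.

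Each stage was deposited as 1 combined list of regions, so a stage has no spread between replicates and nothing was tested. The score of a region grows with sequencing depth, which is unknown here. Scores of different stages were therefore compared as percentiles, the percentage of regions of the same list with a lower score. Regions centred within 2.5 kb of a start are called promoter-proximal and all others distal. Shared regions overlap the other stage's list by 1 bp or more, and all remaining regions are called stage-specific. All 8 limb mesenchyme genes examined had a promoter-proximal region in both lists. Of all protein-coding genes, 65.1% had one in the earlier list and 62.5% in the later. All 6 somite markers examined had one in both lists too, so the presence of a region does not identify the tissue. The best region of Twist1 ranked at 96.9 and 96.5, whereas that of Tbx5, the forelimb factor, ranked at only 4.1 and 1.4.

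The sequences upstream of 4 genes are shown because their promoters differed most between the lists. Neurog1 and Dbx1 had a promoter-proximal region at E9.5 alone, and the regions of Olig2 and Sox1 had the largest differences in rank. They run 5′ to 3′ in the direction of the gene and were read from RefSeq promoters matched to mm9, with capitals for letters of the motifs searched on both strands (the SOX letters ACAATG and the SOX letters ACAAAG, the octamer ATGCAAAT, the homeobox letters TAATTA, the E-box letters CAGCTG, the E-box letters CAGATG, the E-box letters CATATG, and GLI GACCACCC). The Sox1 stretch is chr8:12395269-12395518 (plus strand), the Olig2 stretch chr16:91225545-91225794 (plus strand), the Neurog1 stretch chr13:56353542-56353791 (minus strand) and the Dbx1 stretch chr7:56892220-56892455 (minus strand).
Sox1: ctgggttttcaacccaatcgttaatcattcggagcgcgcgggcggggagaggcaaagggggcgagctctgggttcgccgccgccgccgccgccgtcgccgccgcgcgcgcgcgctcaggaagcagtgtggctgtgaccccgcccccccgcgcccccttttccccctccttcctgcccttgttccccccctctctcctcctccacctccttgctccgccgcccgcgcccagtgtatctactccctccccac
Olig2: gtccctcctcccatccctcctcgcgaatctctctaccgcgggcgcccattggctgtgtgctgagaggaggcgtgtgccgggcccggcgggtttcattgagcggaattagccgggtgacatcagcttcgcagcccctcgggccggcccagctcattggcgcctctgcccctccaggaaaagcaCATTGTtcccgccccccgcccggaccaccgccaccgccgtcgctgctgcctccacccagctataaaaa
Neurog1: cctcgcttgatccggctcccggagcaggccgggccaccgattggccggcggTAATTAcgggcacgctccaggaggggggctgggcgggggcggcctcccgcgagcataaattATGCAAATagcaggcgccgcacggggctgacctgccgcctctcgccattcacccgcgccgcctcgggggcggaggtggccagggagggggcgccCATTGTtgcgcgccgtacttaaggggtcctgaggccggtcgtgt
Dbx1: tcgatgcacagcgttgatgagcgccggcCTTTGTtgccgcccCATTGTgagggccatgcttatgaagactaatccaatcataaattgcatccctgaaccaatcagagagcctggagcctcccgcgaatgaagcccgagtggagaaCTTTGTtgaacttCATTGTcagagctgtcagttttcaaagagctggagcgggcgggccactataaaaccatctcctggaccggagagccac
The Neurog1 stretch held the octamer, a homeobox match and a SOX match, the Dbx1 and Olig2 stretches held SOX matches, and the Sox1 stretch held none of the motifs. Of 32851 RefSeq promoters, read over the 250 bases before the start, 1.60% held the octamer, 4.84% the homeobox letters and 25.2% the SOX letters. A match is a description of the letters and not a bound site.

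Central stretches of 200 bases of 5 distal regions are shown next, on the plus strand of mm9, because these regions were among the highest-scoring stage-specific or shared ones. The first was the highest-scoring E9.5-specific region assigned to these genes, chr3:34987509-34987708, in intergenic DNA 438.55 kb from the Sox2 start. The next was E9.5-specific too, chr8:12401391-12401590, 5.97 kb downstream of the Sox1 start inside an intron of the overlapping gene Gm5607. The third was the highest-scoring E10.5-specific region, chr5:102112468-102112667, intergenic and at -18.32 kb, upstream of Nkx6-1. The last pair are the shared distal regions with the highest E9.5 scores, chr14:118630436-118630635 near Sox21 and chr2:105452071-105452270 in an intron of the non-coding gene Pax6os1.
Sox2 E9.5-specific: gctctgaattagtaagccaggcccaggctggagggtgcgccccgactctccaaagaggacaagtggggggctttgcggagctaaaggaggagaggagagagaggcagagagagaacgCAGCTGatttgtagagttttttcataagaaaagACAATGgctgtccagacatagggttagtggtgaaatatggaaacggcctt
Sox1 E9.5-specific: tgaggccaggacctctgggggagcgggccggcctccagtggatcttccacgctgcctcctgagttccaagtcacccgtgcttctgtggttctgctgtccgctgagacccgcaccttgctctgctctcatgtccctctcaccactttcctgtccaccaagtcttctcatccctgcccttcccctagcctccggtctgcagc
Nkx6-1 E10.5-specific: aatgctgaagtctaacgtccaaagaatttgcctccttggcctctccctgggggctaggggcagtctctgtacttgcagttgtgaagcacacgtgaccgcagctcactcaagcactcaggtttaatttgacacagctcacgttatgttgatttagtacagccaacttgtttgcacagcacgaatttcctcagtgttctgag
Sox21 shared: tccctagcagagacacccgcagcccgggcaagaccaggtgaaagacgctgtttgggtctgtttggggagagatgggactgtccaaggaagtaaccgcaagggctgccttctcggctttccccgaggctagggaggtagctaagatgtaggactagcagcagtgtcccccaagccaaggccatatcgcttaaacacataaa
Pax6 shared: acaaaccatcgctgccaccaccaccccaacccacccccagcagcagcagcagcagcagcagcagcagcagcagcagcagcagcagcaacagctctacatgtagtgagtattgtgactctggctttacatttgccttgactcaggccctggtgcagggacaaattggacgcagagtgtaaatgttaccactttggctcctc
Capitals mark the same motifs. The Sox2 stretch held an E-box CAGCTG and a SOX match, and the other 4 held no match to the letters searched.

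More regions were found around these genes at E9.5 than at E10.5, and the surplus was distal. The 9 annotated genes had 53 distal regions at E9.5 and 34 at E10.5, against 19 promoter-proximal regions at each stage, although the E10.5 list is the longer. The bases covered numbered 117845 in the earlier list and 69390 in the later. With Sox1 the totals were 79 and 55 regions. Where starts of non-coding genes competed for regions, 23 and 18 distal regions were left, of 42 and 37 in all, so most of the surplus was lost.

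At E9.5, 30 of the 72 regions (41.7%, 95% Wilson interval 31.0 to 53.2) had no overlap at E10.5, against 29.9% of all E9.5 regions. At E10.5, 6 of the 53 regions (11.3%, 5.29 to 22.6) were stage-specific, against 35.0% of the list. Among distal regions the shares were 26 of 53 at E9.5 (49.1%, 36.1 to 62.1) against 40.3%, and 6 of 34 at E10.5 (17.6%, 8.35 to 33.5) against 49.6%. Among promoter-proximal regions they were 4 of 19 at E9.5 (21.1%, 8.51 to 43.3) against 13.1%, and 0 of 19 at E10.5 (0 to 16.8) against 5.31%. The intervals cover counting error only and take neighbouring regions as independent. For the 9 annotated genes at E9.5, the interval for all regions lay just above the share of the list, whereas those for the separate classes held it. That call rested on single genes: without Sox2, which supplied 12 of the 30, the share was 33.3% (22.2 to 46.6), and without Nkx6-1 or Neurog1 it was 39.7% in each case, with intervals starting at 28.1 and 28.9, all of which held the share of the list. With Sox1 added, 35 of 79 regions (44.3%, 33.9 to 55.3) and 31 of 58 distal regions (53.4%, 40.8 to 65.7) were E9.5-specific. Both intervals then lay above the shares of the list, and leaving out single genes was not repeated with Sox1. At E10.5 the intervals for all regions and for distal regions lay below the share of the list. Without Sox2 the E10.5 share was 6.82% (2.35 to 18.2), since 3 of the 6 regions were assigned to that gene. Where shared regions had to overlap each other by 50% of their length, the E10.5 share was 37.7% against 39.3% of the list. Counting non-coding starts too, 28.6% of the E9.5 regions were stage-specific, against 29.9% of the list, so the higher E9.5 share did not hold.

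**Figure D1:**
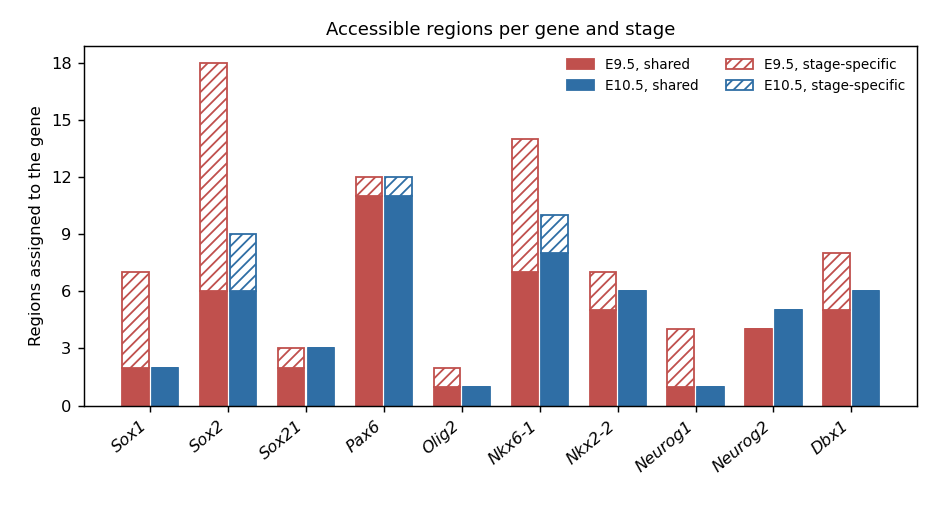
Number of regions assigned to each of the 10 genes (vertical axis) at E9.5 (red) and E10.5 (blue), with shared regions solid and stage-specific regions hatched. Sox2 had 18 and 9 regions, of which 12 and 3 were stage-specific, whereas Pax6 had 12 at both stages with 1 stage-specific region each.

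Among the SoxB genes, Sox2 (chr3:34548927-34551383, plus strand, mm9) had 18 regions at E9.5, the most of the 10 genes, and 9 at E10.5, where Pax6 had 12 and Nkx6-1 had 10. Of the E9.5 regions, 12 were stage-specific, including a group between 7.29 and 28.87 kb downstream of the start that lay in introns and exons of the non-coding gene Sox2ot. The strongest, at a score of 960.85 (percentile 79.1), lay 438.55 kb away. Assignment by distance does not show which gene a region serves. Sox1 had 7 regions at E9.5, of which 5 were stage-specific, and 2 promoter-proximal regions at E10.5. The stage-specific ones included regions at -3.9, 5.97 and 34.93 kb, with scores of 341.26 (57.6), 657.37 (71.6) and 470.86 (65.0). Sox21 (chr14:118632454-118636252, minus strand) had 3 regions at each stage, and the region 9.23 kb downstream was E9.5-specific, with a score of 332.78 (57.0).

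The promoter-proximal regions of all 3 SoxB genes ranked lower at E10.5. The best Sox1 region had a score of 925.84 (percentile 78.4) at E9.5 and 141.26 (26.7) at E10.5. For Sox2 the scores were 1746.99 (90.7) and 541.93 (73.4). For Sox21 they were 1885.92 (92.0) and 562.17 (74.3). The Sox1 difference of -51.7 points was larger than those of Sox2 (-17.3) and Sox21 (-17.7). Of all genes with a promoter-proximal region in both lists, 0.699% had a lower difference than Sox1.

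The progenitor-domain genes were more varied. Pax6 (chr2:105509053-105543317, plus strand), a factor of the middle and dorsal progenitors, had 12 regions at each stage, 7 of them promoter-proximal, and 1 stage-specific region at each. Its best promoter-proximal region scored 2647.85 (96.6) in the earlier list and 1791.64 (94.9) in the later, the smallest difference of the 8 genes with both (-1.7 points). Pax6 has 29 annotated starts, which gives it more chances of a high-scoring region than the other genes. Even so, its promoter-proximal region near chr2:105529444-105531097 had a percentile of 83.9 at E9.5 and its partner 2.4 at E10.5.

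Nkx6-1 (chr5:102087158-102094245, minus strand), a ventral progenitor factor, had 14 regions at E9.5, 7 of them stage-specific, and 10 at E10.5, 2 of them stage-specific. Its best promoter-proximal region had a score of 2222.99 (94.4) at E9.5 and 1111.42 (88.0) at E10.5. Of its E9.5-specific regions, the highest-scoring lay 144.01 kb downstream, with a score of 410.28 (62.0). Nkx2-2 (chr2:147003282-147019979, minus strand), a factor of the most ventral progenitors, had 7 regions and 6, and its best promoter-proximal region had 1169.14 (83.0) and 415.63 (66.6). A further promoter-proximal Nkx2-2 region, at -1.45 kb, was E9.5-specific with a score of 347.54 (58.1). Dbx1 (chr7:56886869-56892219, minus strand), which marks a middle band, had 8 regions at E9.5, 3 of them stage-specific, and 6 at E10.5. Of its E9.5-specific regions, the one centred on the start scored 79.9 (2.1), near the bottom of the list, and the best, 1.83 kb into the gene, scored 317.8 (55.8). At E10.5 the nearest region lay 20.27 kb from its start.

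Olig2 (chr16:91225795-91228922, plus strand), the factor of motor neuron progenitors, had the lowest ranking best promoter-proximal region at E10.5 among the genes that had one. That region scored 592.6 (69.6) in the earlier list and 105.38 (10.7) in the later, a difference of -58.9 points. Of all genes with a promoter-proximal region in both lists, 0.357% had a lower difference. The Olig2 region was 3221 bp wide in the earlier list and 798 bp in the later. A further Olig2 region, at -2.6 kb from the start, was E9.5-specific.

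Of the proneural genes, Neurog1 (chr13:56351866-56353524, minus strand) had 4 regions at E9.5, of which 3 were stage-specific, and 1 at E10.5. Its promoter-proximal region had a score of 735.3 (73.9) at E9.5, whereas its nearest E10.5 region was 30.66 kb away. The other E9.5-specific regions, at -6.4 and -8.46 kb, scored 274.2 (51.6) and 139.77 (24.9). Neurog2 (chr3:127336054-127338549, plus strand) had 4 regions at E9.5 and 5 at E10.5, all shared, since its single E9.5 promoter-proximal region overlapped 2 regions at E10.5. The best of them had a score of 2454.06 (95.7) at E9.5 and 434.92 (67.9) at E10.5.

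**Figure D2:**
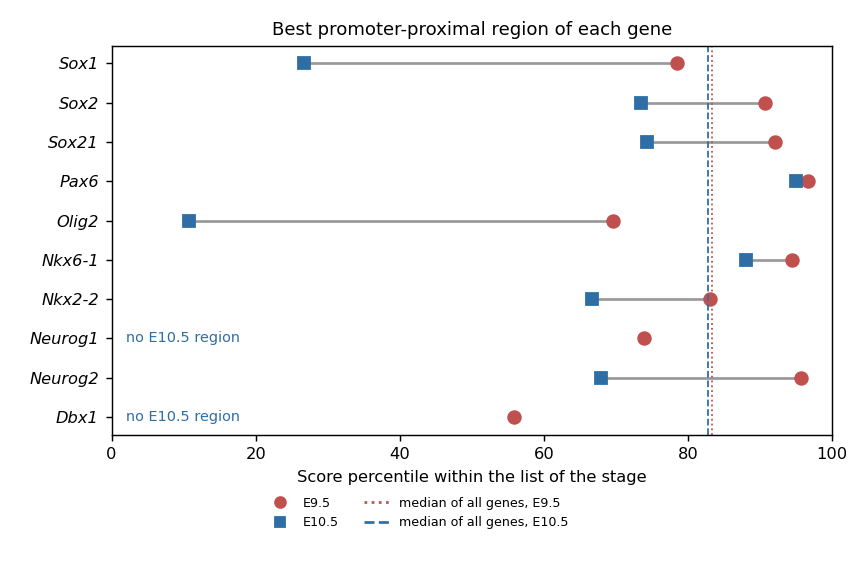
Score percentile of the best promoter-proximal region of each gene (horizontal axis, 0 to 100, within the list of the stage) at E9.5 (red circles) and E10.5 (blue squares), with the medians over all genes as vertical lines. Every gene with a region at both stages has its blue square to the left, by 1.7 points for Pax6 and by 58.9 for Olig2, and Neurog1 and Dbx1 have no E10.5 region.

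Over all 10 genes, each had a promoter-proximal region at E9.5, where 65.1% of protein-coding genes had one, and 8 had one at E10.5, where 62.5% did. Neurog1 and Dbx1 were the 2 with a promoter-proximal region at E9.5 only. That state was found for 840 of the 14568 genes with such a region at E9.5, or 3.75% of all 22380 genes. The 8 with a region in both lists had a lower percentile at E10.5 in 8 of 8 cases, against 58.3% of the 13728 genes with both. Of the 8, 6 were lower by over 10 points, against 20.7% of those 13728 genes. Among those that ranked at least as high at E9.5 as the lowest of these 8, the share was 15.6%. The median difference of the 8 was -17.5 points, with a range from -58.9 to -1.7, against a median of -1.3 over the 13728 genes. Ranking promoter-proximal regions only among themselves, the 7 annotated genes were again all lower, with a median of -32.4 points against -2.1 over all genes.

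Widths of the promoter-proximal regions were compared for the best region and for the sum. For the 8 genes with both, the widths had medians of 3731 and 1439 bp, and 7 of 8 were narrower, Pax6 being the exception at 3664 and 3696 bp. Over all genes with both, the medians were 1738 and 1503 bp, and 76.0% were narrower, so the count of narrower regions was near that of all these genes. For Sox21, Nkx6-1, Nkx2-2 and Neurog2 the best E9.5 region overlapped 2 separate E10.5 regions. Summed over all promoter-proximal regions of a gene, the medians for the 8 genes were 3974 and 2827 bp, with 8 of 8 smaller at E10.5, against 1904 and 1654 bp and 75.3% smaller over all genes. For Sox21 the sums were 3851 and 3126 bp.

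**Figure D3:**
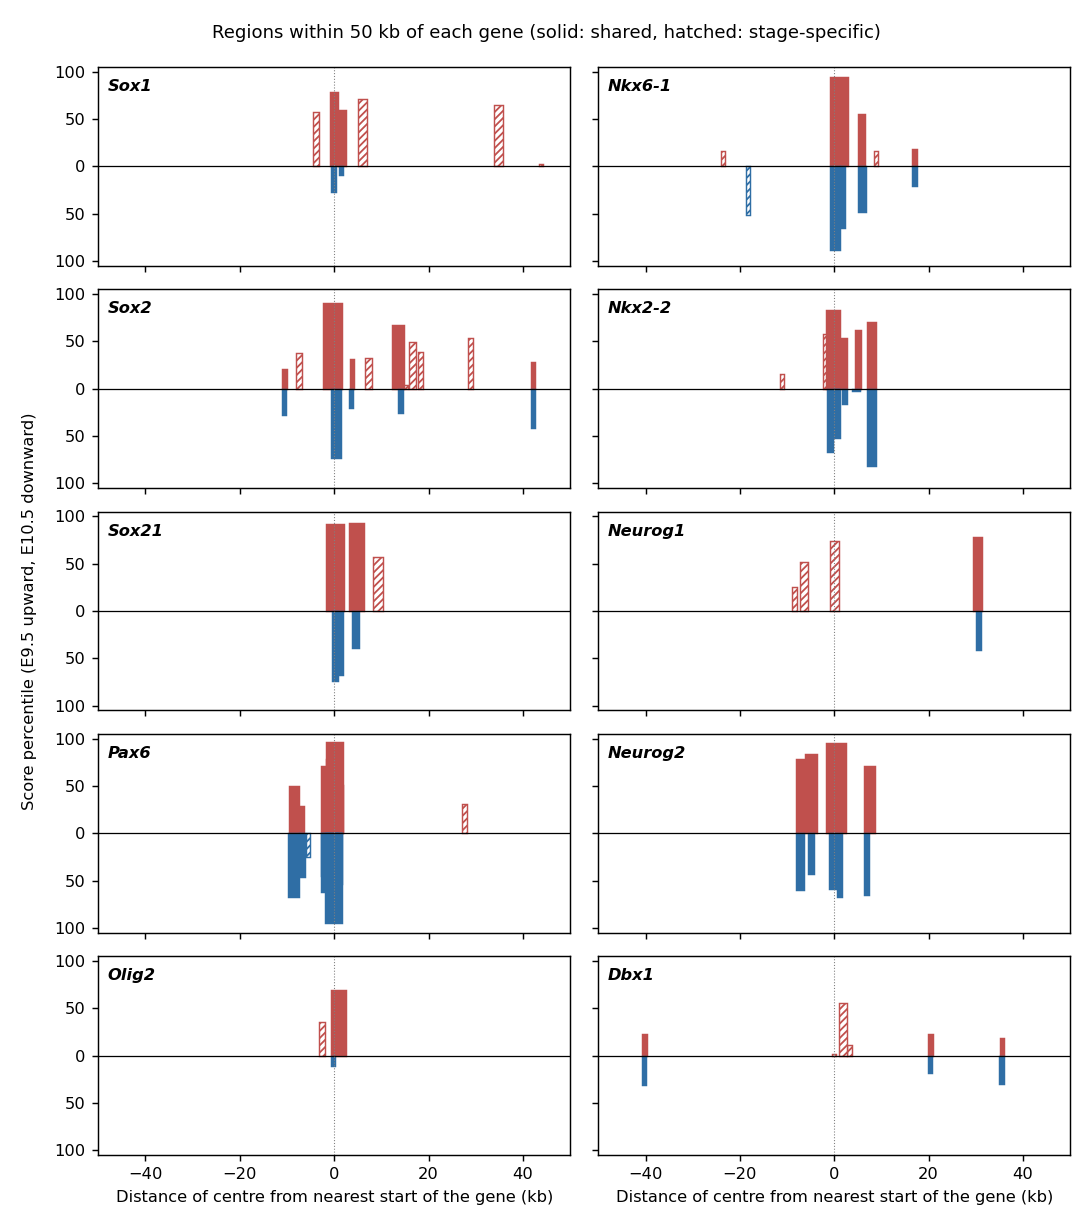
Regions within 50 kb of each gene, placed by distance of the region centre from its nearest start of the gene (horizontal axis, kb) and drawn upward for E9.5 and downward for E10.5 to the height of their score percentile, with stage-specific regions hatched. Around Sox1, Sox2 and Neurog1 most E9.5 bars have no bar beneath them, whereas nearly all Pax6 bars and all Neurog2 bars are mirrored.

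Of 17 shared promoter-proximal regions of the 10 genes, 16 had a lower percentile at E10.5 in their best-scoring partner, against 58.4% of all shared promoter-proximal regions, and the median difference was -17.74 points against -1.5 over all of them. The exception was a Pax6 region, 2.9 points higher. Pax6 supplied 7 of the 17 and Nkx2-2 several others, so the 17 are not independent across the 10 genes. Of 27 shared distal regions, 13 were higher at E10.5 (48.1%), against 58.2% of all shared distal regions, and the median difference was -0.04 points against 4.0 over all of them. The lists as a whole thus differed by class in the same order.

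The distal regions ranged from -59.1 to 18.7 points. The Nkx2-2 region 5.12 kb downstream of the start had a percentile of 61.9 in the earlier list and 2.8 in the later. The Sox21 region 4.77 kb downstream had 93.0 and 39.5, with scores of 2011.25 and 185.62. The Neurog2 region at -4.97 kb had 83.7 and 42.8, and the Sox2 region 13.56 kb downstream had 67.5 and 25.6.

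Other distal regions ranked higher at E10.5. The Nkx6-1 regions 299.76 and 239.05 kb downstream had 43.1 and 68.4 at E9.5 and 61.8 and 84.4 at E10.5. The Pax6 region at -8.55 kb was 17.1 points higher, at 67.1, and the region 114.25 kb downstream of Dbx1, in an intron of Nav2, had 75.5 and 86.7. The Pax6 region at -56.88 kb, whose sequence is shown above, had 88.9 and 88.8.

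**Figure D4:**
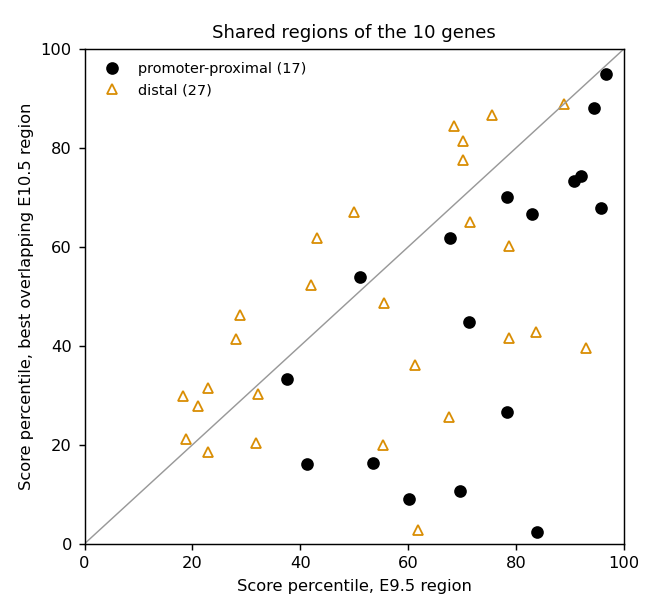
Score percentile at E9.5 (horizontal axis) against that of the best overlapping E10.5 region (vertical axis) for 17 promoter-proximal (filled circles) and 27 distal (open triangles) shared regions of the 10 genes. All but 1 circle lie below the diagonal, whereas the triangles lie on both sides of it.

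The 35 E9.5-specific regions of the 10 genes had a median score of 174.55 and a highest score of 960.85, and 9 scored under 120. Of the 35, 23 lay within 50 kb of the start and 9 over 100 kb away. The 6 E10.5-specific regions had a median score of 130.595 and a highest score of 247.86, and 4 lay over 100 kb away. They were 3 regions of Sox2 with scores of 104.68, 107.89 and 213.53, 2 of Nkx6-1 with scores of 124.98 and 247.86, and 1 of Pax6 with 136.21. The Sox2 region of score 213.53, chr3:35001822-35002670, lay next to an E9.5-specific one, chr3:35003609-35004438, so the lists differed there over a short distance. The median GC content was 51.5% among those found at E9.5 alone and 46.8% among those found at E10.5 alone. The stage-specific regions of the whole lists had medians of 51.8% and 44.2%.

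Motif letters were counted in the 150 bp to either side of the centres of the distal regions of the 10 genes. The octamer, read by POU factors, stood in 4 of 58 distal regions at E9.5 (6.90%) against 1.76% of the list. At E10.5 it stood in 0 of 34, which allows up to 8.82% (3 counts in 34), against 1.63%. The SOX letters stood in 23 of 58 (39.7%) against 38.7% at E9.5 and in 17 of 34 against 36.3% at E10.5. The homeobox letters stood in 7 of 58 (12.1%) against 7.17% and in 1 of 34 (2.94%) against 12.0%. Of the E-box letters, CAGCTG stood in 22.4% against 26.6% and in 14.7% against 23.6%, CAGATG in 32.8% against 29.5% and in 14.7% against 31.5%, and CATATG in 5.17% against 4.79% and in 5.88% against 7.12%. The GLI letters stood in 1 of 58 (1.72%) against 1.06% and in 0 of 34 against 0.806%. Among the 21 promoter-proximal regions of each stage, the octamer stood in 1 at E9.5 (4.76% against 0.784%) and in 2 at E10.5 (9.52% against 0.916%). These counts are small, and none was tested.

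Other neural tube factors followed the same order in part. Of 24 such genes, 22 had a promoter-proximal region in the earlier list and 20 in the later. Pax2, Pax7 and Neurog3 had one at E9.5 only, Gsx2 at E10.5 only, and Evx1 at neither stage. Of the 19 with both, 16 had a lower percentile at E10.5 and 9 were lower by over 10 points, with a median of -9.3 and a range from -71.2 for Hes5, a Notch target, to 6.7 for Foxa2, the floor plate factor. Among 8 limb mesenchyme genes, 3 were lower, none by over 10 points, and the median was 2.8, with Lhx9 (21.5) and Prrx2 (13.9) the highest.

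Markers of other trunk and surface cell types were set beside all genes with both regions, of which 58.3% were lower, with quartiles of -7.9 to 2.4 points. The 4 neuronal markers with both regions had a median of -13.8 points, with 3 lower, Elavl3 had a region at E9.5 only, and Dcx at E10.5 only. The 6 somite markers had a median of -5.7, with 3 lower and 3 higher. The 3 neural crest markers had -2.0 and the 3 surface ectoderm markers -4.5. All 3 of each list were lower, with Foxd3 of the neural crest list at -27.3. Of the 5 surface ectoderm markers with a region at E9.5, Cdh1 and Fgf8 had none at E10.5. Over all genes that state was found for 840 of the 14568 with a region at E9.5. The somite, neural crest and surface ectoderm medians lay within the quartiles of all genes, and these lists are short. Even so, 3 of the 6 somite markers were lower by over 10 points (Myf5 -32.1, Meox1 -23.2, Foxc2 -18.7), against 20.7% of all genes with both. The counts were 2 of 4 for the neuronal, 1 of 3 for the neural crest and 0 of 3 for the surface ectoderm markers. Differences of this size were therefore not limited to neural genes. Sox10 and Trp63, which define neural crest derivatives and basal ectoderm, had no promoter-proximal region at either stage. The part of these cell types in the differences of the 10 genes was not tested.

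**Figure D5:**
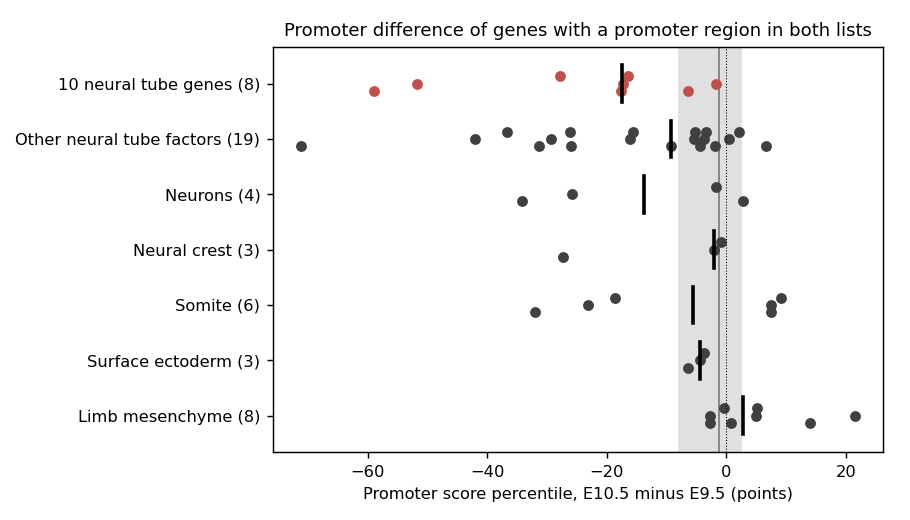
Difference of the best promoter-proximal score percentile, E10.5 minus E9.5 (horizontal axis, points), for genes with a region in both lists, 1 row per gene list with its number of genes, 1 point per gene and a black bar at the median. The grey band spans the quartiles over all genes, -7.9 to 2.4, and the 10 neural tube genes have a median of -17.5 whereas the limb mesenchyme genes have one of 2.8.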

How the data were processed

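ATAC-seq had been performed on 4 samples, 2 per stage. The submitters' processing notes name Bowtie 1.1.0 and MACS 1.4 with mm9. The authors combined the replicates of a stage into 1 list per stage, with a stringent p-value of 1e-10 and a weak one of 1e-06. The deposited score of a region is 10 times the negative log10 of its best MACS p-value, and depth is unknown. From these lists, region centres were assigned to the nearest of 70064 starts of 22380 protein-coding genes (GENCODE vM1, NCBIM37, the mm9 assembly). Percentiles, overlaps, GC content and motif letters were computed with Python 3.11.15, numpy 2.4.6 and pandas 2.3.3, and the assignment and overlap steps were tested on simulated data. The Sox1 start came from 1 exact match of its RefSeq promoter (GRCm38.p6 table), and the last 14 bases of the Dbx1 promoter, transcribed per the annotation, were left out. All 10 genes are named, with the best promoter-proximal and distal regions and the best stage-specific regions, and further shared regions were named after their values were seen. The genes and marker lists were chosen with earlier results of these data known. Tfap2a was matched as Tcfap2a. Stage-specific shares have 95% Wilson intervals, and no test was made, since each stage is 1 list.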

Additional observations from a re-analysis of the deposited data

How the results depend on the processing

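No paired analysis was possible because neither list keeps its replicates apart. Of 99 recomputed values, 85 stayed within 1.5 times the count, inside the 95% interval of the share or within 1 SD between genes of the median promoter difference, and 14 moved further. These bounds are wide. Ranking among promoter-proximal regions took the median difference from -17.3 to -32.4 within them. Counting non-coding starts too, the E9.5 regions numbered 42, since 15 of Sox2 went to Sox2ot and 9 of Nkx6-1 to Gm20484. Of the 42, 23 were distal and 28.6% were stage-specific, against 29.9% of the list, so the higher E9.5 share did not hold. At E10.5, 18 of 37 regions were distal and 5.41% were stage-specific, against 35.0% of the list. Within 50 kb of a start, 22 E10.5 regions were distal. Restricting each list to its higher-scoring 50% left 37 E9.5 regions (21 distal, 21.6% stage-specific against 10.8% of the list) and 24 E10.5 regions (11 distal, 4.17% against 18.1%). With a reciprocal overlap of 50%, the shares were 54.2% at E9.5, against 33.4% of the list, and 37.7% at E10.5, against 39.3%, so the low E10.5 share did not hold under that setting; the cause was not tested. A promoter distance of 1 kb left 12 E9.5 promoter-proximal regions. Leaving out each gene in turn gave 33.3% to 48.3% at E9.5, 6.82% to 12.8% at E10.5 (lowest without Sox2), and a median promoter difference of -17.5 to -16.8. Ranking among promoter-proximal regions, adding Sox1 and the promoter settings of the median difference were chosen after the data had been seen. Depth is unknown, and regions of weak score lie near the limit of detection.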
